A study of Mus musculus with 146 samples.

Results

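Immediate early genes are genes that cells transcribe within minutes of a stimulus from factors already present, without first making protein. Many are switched on when growth factor, calcium or stress signals reach the serum response factor or CREB at their promoters, and their transcripts are short-lived. Several encode the AP-1 subunits (the Fos and Jun families), others encode zinc finger regulators or the phosphatases and RNA decay factors that end the response, and in dissociated tissue the group is known to respond to the dissociation itself. The genes described here are Fos, Fosb, Jun, Junb, Egr1, Ier2, Atf3, Dusp1, Btg2 and Zfp36, 10 of the 52605 gene symbols in the data. They were picked by name and not by a cut on a measured value, but with earlier results of these data known. All 10 had a row in each library.

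The cells were 146 single germ cells of C57/BL6J mice at P0.5 (0.5 days after birth), the time when germ cell cysts break down and primordial follicles form. The labels give all of them 1 strain, 1 age and 1 tissue, the ovary, name no transgene or treatment, and place the pups in the same litter with 5 ovaries. The ovaries were dissociated in trypsin, EDTA and DNase I at 37 °C for 10 min, and cells were picked by mouth pipette into lysis buffer. ERCC spike-in RNA was added before cDNA synthesis by Smart-seq2. Amplified cDNA was screened for Vasa (Ddx4) and against the pregranulosa gene Foxl2 before sequencing. Every cell passed through the same digestion, so transcript present before it and transcript made during it cannot be told apart. No animal is named for any cell, so all cells are 1 sample. Values are therefore given per cell or as means, shares and ratios without a test, and exact (Clopper-Pearson) 95% intervals of shares cover counting error only.

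Cells with Ddx4 below 1 TPM (transcripts scaled to a fixed total per cell) were left out, which removed 1 of the 146 libraries, cell S029, with Ddx4 listed at 0. The lowest kept cell had 7.49 TPM of Ddx4 and the highest 542 TPM. Of the list of 10 germ cell markers, which includes Ddx4, the genes Dazl, Mael, Sycp3, Figla and Ybx2 were also above 0 in every kept cell. Tex101 and Kit were listed at 0 in 3 cells each, and Rec8 and Pou5f1 had a median of 0. Between 4074810 and 26855273 reads per kept cell were assigned to genes, with a median of 9498860. Cells were grouped into 3 clusters rebuilt from the 20 oocyte genes that the study used for clustering, none of them an immediate early gene. Cell S029 was present when the clusters and the stage axis were made and was left out afterwards. Cluster 1 held 19 cells with the highest mean of the meiotic genes Sycp2 (495 TPM) and Stag3 (322 TPM), cluster 2 held 93 cells, and cluster 3 held 33 cells with the highest mean of the zona pellucida gene Zp3 (557 TPM against 0.094 TPM in cluster 1). The first component of the same genes gave each cell a place on a stage axis from cluster 1 to cluster 3.

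In 7 pairs of libraries, S045 with S140, S046 with S141, S058 with S142, S062 with S143, S063 with S144, S123 with S145 and S124 with S146, the levels were closely alike. The correlation of log2(TPM + 1) over genes was 0.985 to 0.993 within these pairs, against at most 0.858 for any other pair of libraries, although the labels name each as a cell of its own. Members at 10 TPM or more were the same within each pair, and all 14 libraries fell in cluster 2. Whether each pair comes from 1 cell is not given in the labels. Every library is counted as a cell below, and the counts and intervals of cluster 2 and of all kept cells are to that extent not of separate cells. With each pair counted once at its mean TPM, cluster 2 held 86 cells, Fos was on in 12 cells in all, Jun in 18, Egr1 in 46, Btg2 in 56 and Ier2 in 93, and Ier2, Egr1 and Btg2 were on together in 26 cells. The counts of Fosb, Junb, Dusp1 and Zfp36 cells and of cells with at least 5 members on did not move. Of the members' means and shares of cells on, in all kept cells and by cluster, none moved by more than 1.5-fold. In cluster 3 over cluster 2, 5 members were higher and 1 lower by at least 1.5-fold, beside 16.6% and 29.9% of the tested genes.

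Markers of other cell types were low in most cells. Of the 14 pregranulosa markers 13 had a median of 0, as had 10 of the 12 stroma, 7 of the 9 immune and all 7 endothelial markers. The summed level of the stroma markers reached 100 TPM in 3 cells, with a maximum of 879 TPM. That of 7 blood markers reached 100 TPM in 56 cells and 325006 TPM in 1 cell of cluster 1.

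Sequence upstream of the start site is shown for Fos, Junb, Jun and Dusp1, which differed by at least 1.5-fold between clusters, and for Btg2, whose level went most closely with the stage axis. Of the 10 genes, 8 matched the RefSeq promoter table (GRCm38.p6), and Ier2 and Egr1 did not. The 200 bases before the start are given 5′ to 3′ on the strand of the gene, and capitals mark TGACG, the core of the cAMP response element, on either strand.
Fos, chr12:85473690-85473889, plus strand: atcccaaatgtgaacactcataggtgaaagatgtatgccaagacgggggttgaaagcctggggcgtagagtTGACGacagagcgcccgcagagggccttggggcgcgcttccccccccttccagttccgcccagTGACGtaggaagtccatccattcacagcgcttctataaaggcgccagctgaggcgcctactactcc
Junb, chr8:84978749-84978948, minus strand: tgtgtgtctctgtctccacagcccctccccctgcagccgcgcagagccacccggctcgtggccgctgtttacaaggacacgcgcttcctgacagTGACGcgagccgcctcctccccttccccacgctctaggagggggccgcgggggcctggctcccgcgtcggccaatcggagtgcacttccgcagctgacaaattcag
Btg2, chr1:134079156-134079355, minus strand: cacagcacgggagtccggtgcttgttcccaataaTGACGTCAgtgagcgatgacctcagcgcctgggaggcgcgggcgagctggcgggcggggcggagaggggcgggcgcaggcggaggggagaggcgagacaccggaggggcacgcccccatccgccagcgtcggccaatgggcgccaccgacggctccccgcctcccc
Dusp1, chr17:26508473-26508672, minus strand: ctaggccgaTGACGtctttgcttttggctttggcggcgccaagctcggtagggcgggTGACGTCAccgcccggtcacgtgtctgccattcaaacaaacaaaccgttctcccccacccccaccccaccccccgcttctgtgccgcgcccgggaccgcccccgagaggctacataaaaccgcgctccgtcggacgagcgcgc
Jun, chr4:95052223-95052422, minus strand: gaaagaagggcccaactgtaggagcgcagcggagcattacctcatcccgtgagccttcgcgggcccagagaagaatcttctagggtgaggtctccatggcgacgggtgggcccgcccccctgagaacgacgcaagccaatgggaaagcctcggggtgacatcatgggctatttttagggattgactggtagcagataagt
TGACG was in this window in 6 of the 8 genes (Fos, Fosb, Junb, Atf3, Dusp1 and Btg2) and in 15.7% of all 32851 promoters of the table. Fos carried it at -129 and -66 and Junb at -106, counted to the first base of the motif from the start site. In Btg2 and Dusp1 it lay within the full palindrome TGACGTCA, at -166 and -143, which 1.47% of all promoters hold, and Dusp1 had a further TGACG at -191. TGANTCA, the short form of the AP-1 element, was in none of the 8 windows and in 5.48% of all promoters. Longer AP-1 sites were not sought as such, so the windows may still hold some. TATAAA was in the window of Fos only (9.96% of all), and a CArG box, the serum response factor element, was in that of Zfp36 only (1.18% of all). These matches describe letters in the window and were not tied to any level below.

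In GENCODE M21 (GRCm38) the genes lie at chr12:85473890-85477273 (Fos), chr7:19302696-19310051 (Fosb), chr4:95049034-95052222 (Jun), chr8:84974484-84978718 (Junb), chr18:34859823-34864984 (Egr1), chr8:84661331-84662852 (Ier2), chr1:191170296-191218039 (Atf3), chr17:26505590-26562128 (Dusp1), chr1:134075170-134079120 (Btg2) and chr7:28376784-28380253 (Zfp36). Jun overlaps the antisense gene Junos, Zfp36 overlaps the antisense gene Gm44710, Atf3 holds the small RNA gene Gm24748, and Junb overlaps Prdx2 of the opposite strand. Dusp1 overlaps Ergic1 and the pseudogene Gm8225 of the opposite strand, and on its own strand the pseudogene AC122252.4 and the sense intronic gene AC122252.1. Smart-seq2 libraries do not mark strand, so reads of these 5 genes and of their partners cannot be told apart where the transcripts overlap. Fos, Fosb, Egr1, Ier2 and Btg2 overlap no other gene there.

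Levels differed widely between members, and each member was present in some cells and absent from others. On the TPM scale, which is per transcript length, Ier2, a regulator named for its immediate early response, was the most abundant member with a mean of 70.3 TPM. It ranged from 0 to 704 TPM with a median of 36.5 TPM, and it reached 10 TPM, called on from here, in 99 cells (68.3%, interval 60.04 to 75.7%). Egr1, a zinc finger transcription factor induced through the MAP kinase route, had a mean of 24.9 TPM but a median of 0.087 TPM. It was on in 49 cells (33.8%, interval 26.2 to 42.1%), and its highest cell held 544 TPM from 21924 reads. Btg2, an antiproliferative cofactor of mRNA deadenylation and a target of p53, had a mean of 19.3 TPM, a median of 1.74 TPM and a maximum of 213 TPM, and was on in 59 cells (40.7%, interval 32.6 to 49.2%). Of the 10 genes, only Ier2 was on in the majority of the cells.

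The AP-1 subunits were silent in most cells and high in a few. Fos, the subunit that must pair with a Jun protein to bind DNA, had a median of 0 and a mean of 8.41 TPM, was listed at 0 in 97 cells and was on in 13 cells (8.97%, interval 4.86 to 14.8%). A single cell, cell S012, held 576 TPM of Fos from 3766 reads, which is 47.2% of the summed Fos TPM of all cells, and the next cell held 118.4 TPM. Jun, which can also pair with itself, was on in 20 cells (13.8%, interval 8.63 to 20.5%) with a mean of 7.09 TPM and a maximum of 187 TPM in cell S018. Junb was on in 13 cells, with a mean of 5.48 TPM and a maximum of 277 TPM in cell S021. Fosb reached 10 TPM in 3 cells, at 12.01, 14.1 and 20.5 TPM. Within the cells in which they were on, the median level was 45.6 TPM for Fos, 35.2 TPM for Junb and 25.95 TPM for Jun, against 59.7 TPM for Ier2.

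Dusp1, Zfp36 and Atf3 were on in few cells. Dusp1, a phosphatase that inactivates MAP kinases, was on in 7 cells with a maximum of 50.9 TPM and a mean of 1.58 TPM. Zfp36, which binds AU-rich elements and speeds mRNA decay, was on in 4 cells with a maximum of 23.8 TPM and a mean of 0.728 TPM. Atf3, a stress-induced factor of the ATF family, was on in no cell, which allows a share of up to 2.51% by the upper bound of the interval. It had reads in 2 cells, at 1.504 TPM from 5 reads in cell S051 and at 0.061 TPM from 1 read in cell S034. The stroma markers summed to 337 TPM in cell S051 and to 87.7 TPM in cell S034, and the part of these markers was not tested.

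**Figure D1:**
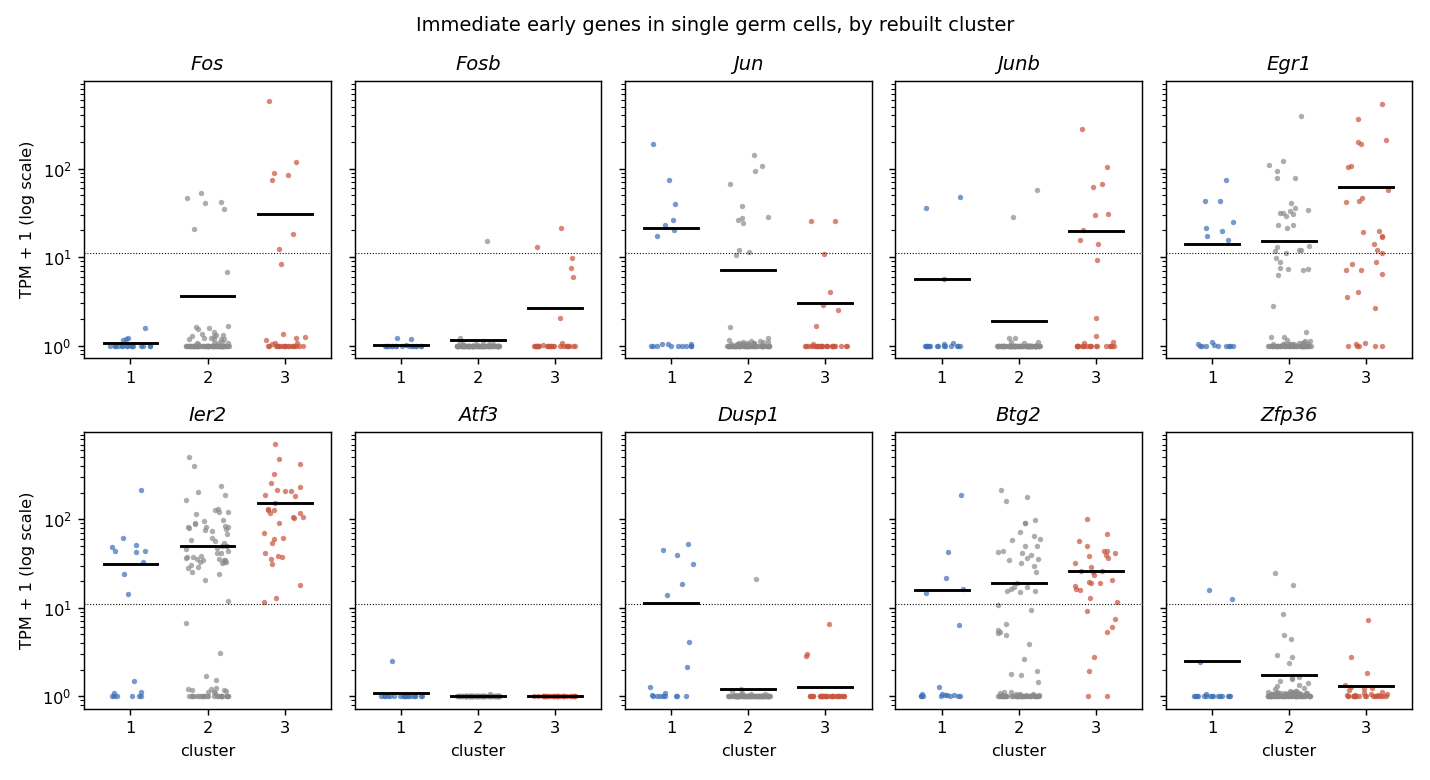
Level of each immediate early gene in the kept single germ cells (points), as TPM + 1 on a log axis, in rebuilt clusters 1, 2 and 3 (19, 93 and 33 cells). Black lines are means of TPM, plus 1, and the dotted line marks 10 TPM. Ier2 lies above the dotted line in all 33 cells of cluster 3, Dusp1 lies above it mainly in cluster 1, and the mean of Fos in cluster 3 is set by few cells.

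The members were not switched on as 1 block. Of the kept cells, 28 had no member on, 39 had 1, 32 had 2, 25 had 3, 17 had 4, 3 had 5 and 1 had 6, and no cell had more. The median was 2 members per cell. The 4 cells with at least 5 members on were spread over all clusters. Cell S018 of cluster 1 had Jun at 187 TPM, Btg2 at 188 TPM, Ier2 at 43.3 TPM, Dusp1 at 38.3 TPM, Zfp36 at 14.9 TPM and Egr1 at 14.5 TPM, with Fos and Fosb at 0. Cell S007 of cluster 2 had Ier2 at 401 TPM, Egr1 at 398 TPM, Btg2 at 178 TPM, Jun at 140.5 TPM and Junb at 56.3 TPM, again with Fos at 0. Cell S090 of cluster 2 had Ier2 at 510 TPM, Btg2 at 89.5 TPM, Egr1 at 35.3 TPM, Jun at 23.1 TPM and Fosb at 14.1 TPM. Cell S135 of cluster 3 had Egr1 at 544 TPM, Ier2 at 105.7 TPM, Fos at 72.8 TPM, Btg2 at 67.3 TPM and Junb at 28.99 TPM. These cells differed in their AP-1 subunits, and all of them had Ier2, Egr1 and Btg2 on. Their summed blood markers were 7.33, 110.8, 173 and 33.9 TPM in the same order, and the part of these markers was not tested.

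Ier2, Egr1 and Btg2 were the members most often on together. All 3 were on in 28 cells (3, 12 and 13 cells of clusters 1, 2 and 3), and none of the 3 was on in 30 cells. Ier2 was on in 49 of the 59 Btg2 cells (83.1%) and in 39 of the 49 Egr1 cells (79.6%), beside 68.3% of all cells. The rarer members came almost always with at least 1 of these 3, since 49 of the 51 cells with Fos, Fosb, Jun, Junb, Dusp1 or Zfp36 on also had Ier2, Egr1 or Btg2 on. All 13 Fos cells and all 13 Junb cells had Ier2 on, whereas Ier2 was on in 15 of the 20 Jun cells and in 4 of the 7 Dusp1 cells. Cluster 3, where Ier2 was on in all 33 cells, held 7 of the Fos cells and 9 of the Junb cells.

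Fos was on both with and without a partner of the Jun family. Fos and Jun were on together in 0 cells, with 13 cells that had Fos on and 20 that had Jun on. The interval of 0 of 13, which covers counting error only, reaches 24.7% and so holds the 13.8% of all cells, the Fos cells included, with Jun on. Cells S045 and S140 among the 13 are a near-identical pair, and no difference between Fos cells and other cells was tested. Among the Fos cells the highest Jun level was 9.79 TPM, and among the Jun cells the highest Fos level was 0.603 TPM. At a limit of 1 TPM, 3 cells held both, and the rho of Fos with Jun over all kept cells, most of them near 0 in both, was 0.23. Junb was on in 2 of the 13 Fos cells (15.4%, interval 1.92 to 45.4%), beside 8.97% of all cells. Jund, the Jun family member that is usually expressed without a stimulus, was on in 5 of them (38.5%, interval 13.9 to 68.4%), beside 23.4% of all cells. At least 1 of Jun, Junb and Jund was on in 6 of the 13 (46.2%, interval 19.2 to 74.9%), beside 37.2% of all cells. Jun and Junb were on together in 1 cell, and Dusp1 was on in none of the Fos or Junb cells. Transcript levels of a moment were measured, and protein was not.

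**Figure D2:**
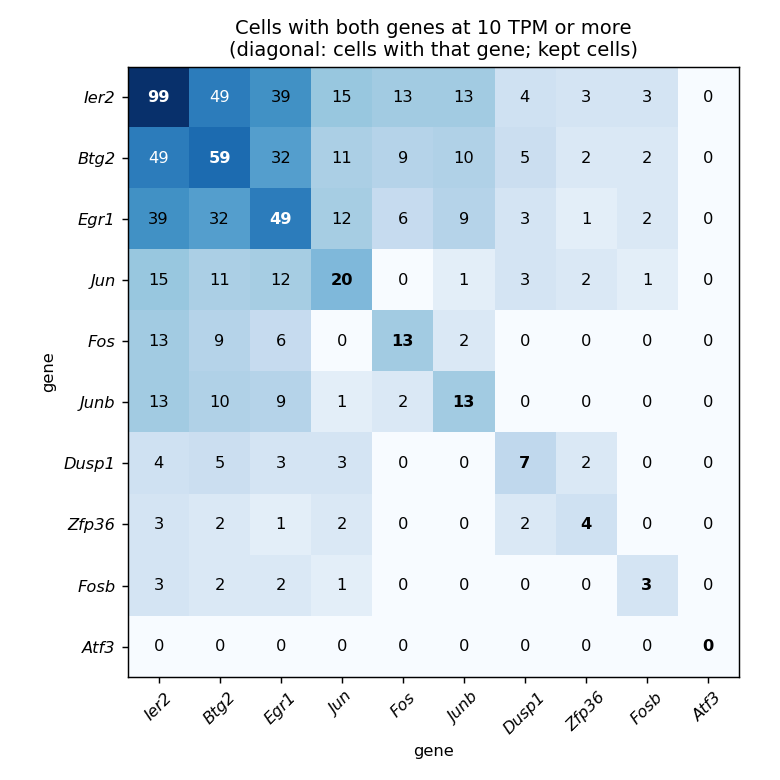
Number of kept cells in which both genes of a pair had at least 10 TPM, with the cells of each gene alone on the diagonal. The block of Ier2, Btg2 and Egr1 holds 32 to 49 shared cells per pair, and the cell for Fos and Jun holds 0.

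Ranked over all kept cells, the levels of the members went together weakly. Spearman's rho over the 45 pairs had a median of 0.13 and ran from -0.05 (Egr1 with Zfp36) to 0.42 (Ier2 with Btg2), and 40 pairs were above 0. The pairs among Ier2, Egr1 and Btg2 had the 3 highest values, with a median of 0.41. Of the 45 pairs, 33.3% had a rho of at least 0.2, beside 7.94% of all pairs of the 11759 coding genes with a mean of at least 1 TPM, whose median was 0.04. Within the 93 cells of cluster 2 the median over the member pairs was 0.11. All points are cells of 1 sample that share library steps, and many values are tied at 0, so these values are a description only.

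**Figure D3:**
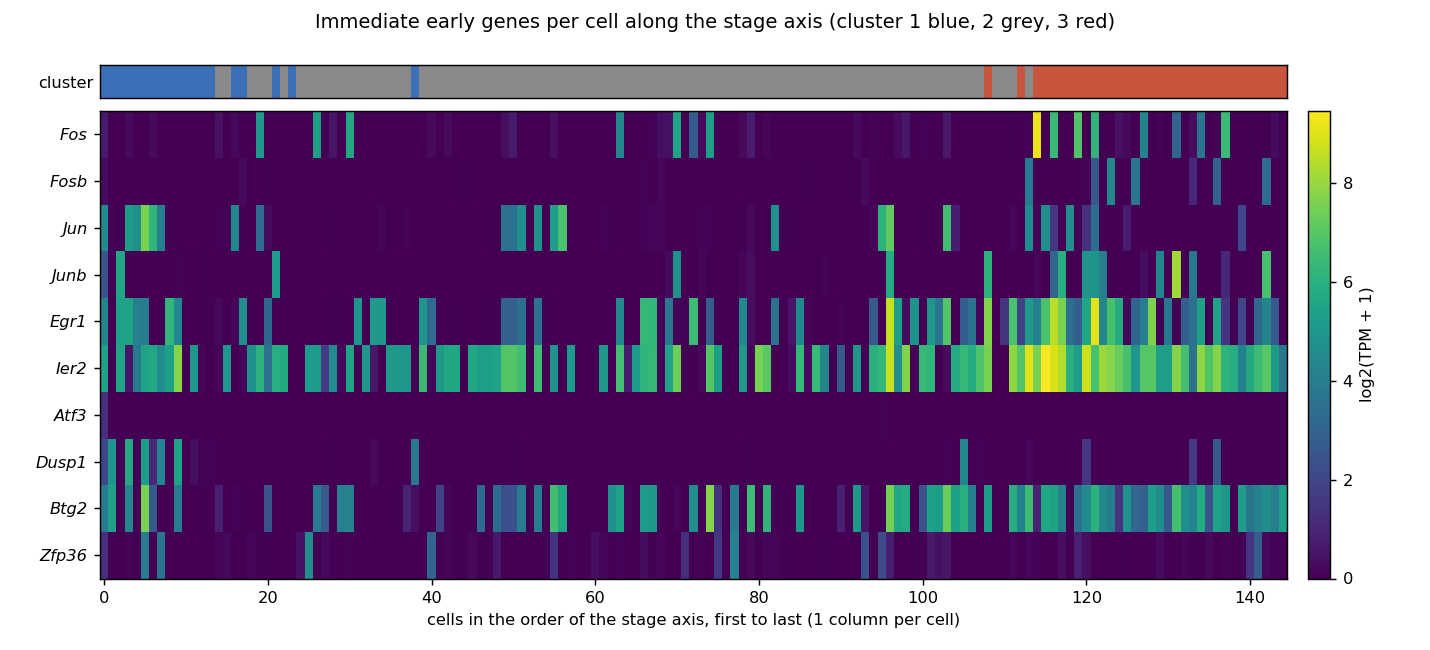
Level of the 10 genes as log2(TPM + 1), by colour, in the kept cells (1 column each) ordered along the stage axis, with the cluster of each cell in the bar above. Ier2 and Btg2 are filled in nearly every column at the right end, and Dusp1 is filled mostly at the left end.

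The number of members on per cell was highest in the late cells, although Jun and Dusp1 were each on in the largest share of cells in cluster 1. Zfp36 was on in 2, 2 and 0 cells of clusters 1, 2 and 3. It had at least 1 read in 21.1%, 45.2% and 45.5% of their cells. The median number of members on was 2, 1 and 3 in clusters 1, 2 and 3. No member was on in 4 of 19 cells of cluster 1 and in 24 of 93 cells of cluster 2, whereas every one of the 33 cells of cluster 3 had at least 1. At least 3 members were on in 36.8% of cluster 1 (interval 16.3 to 61.6%), 20.4% of cluster 2 (interval 12.8 to 30.1%) and 60.6% of cluster 3 (interval 42.1 to 77.1%). The intervals of clusters 2 and 3 did not overlap, and that of cluster 1 overlapped both. They cover counting error over cells of 1 sample only, and no other set of genes was counted in this way.

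In cluster 3, 5 of the 10 members had a higher mean than in cluster 2 by at least 1.5-fold, beside 16.7% of the 11759 tested genes. Jun, 1 member, was lower by at least 1.5-fold, beside 30.4% of the tested genes. Ratios are log2 of mean TPM + 1, which understates the change of low genes, and 7 of the 10 members were among the tested genes because Fosb, Atf3 and Zfp36 had a mean below 1 TPM. The median log2 ratio over the 10 members was 0.83, beside -0.22 over all tested genes.

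Ier2 was present in every cell of cluster 3. It ran from 0 to 215 TPM with a median of 13.4 TPM in cluster 1, from 0 to 510 TPM with a median of 31.8 TPM in cluster 2, and from 10.7 to 704 TPM with a median of 116.96 TPM in cluster 3. The log2 ratio was 0.70 from cluster 1 to 2 and 1.61 from cluster 2 to 3. The first of these was -0.07 without the cells with markers of other cell types, 0.23 with Ward clusters and 0.55 without cell S090. It was 2.16 in the cells with at least the median number of genes, 1.30 with clusters from other variable genes and 1.28 without cell S136. The second was 0.75 in the cells with at least the median number of genes. Ier2 was on in 52.6% (interval 28.9 to 75.6%), 60.2% (interval 49.5 to 70.2%) and 100% (interval 89.4 to 100%) of the cells in that order, so the cells of cluster 3 had no silent fraction, although the ranges of the clusters overlapped.

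Btg2 differed between the clusters in its share of cells more than in its mean. It was on in 26.3% of cluster 1 (interval 9.15 to 51.2%), 31.2% of cluster 2 (interval 22.0 to 41.6%) and 75.8% of cluster 3 (interval 57.7 to 88.9%). Its means were 14.99, 18.1 and 25.4 TPM, and the log2 ratio of the last pair, 0.47, was below the 1.5-fold limit. It was above that limit as CPM (0.67), per spike-in TPM (1.32), as a difference of mean log2 values (2.11), with Ward clusters (0.90), with clusters from other variable genes (0.64), without the cells with markers of other cell types (0.68) and without cell S129 (0.63). It stayed below with a pseudocount of 0.1 TPM (0.48), with clusters made without cell S029 (0.55) and with near-identical libraries counted once (0.42), and it turned to -0.46 in the 73 cells with at least the median number of genes. The highest cells of Btg2 were in clusters 1 and 2 (188 and 213 TPM). The median was 0.043, 0.047 and 19.6 TPM. Without cell S018, which held 188 TPM, the log2 ratio of cluster 2 over cluster 1 was 1.58 in place of 0.26.

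Egr1 was on in 42.1% of cluster 1 (interval 20.3 to 66.5%), 24.7% of cluster 2 (interval 16.4 to 34.8%) and 54.5% of cluster 3 (interval 36.4 to 71.9%). Its means were 13.2, 14.1 and 61.8 TPM, with a log2 ratio of 0.09 and then of 2.05. The first of these ran from -0.78 without the cells with markers of other cell types to 1.37 in the cells with at least the median number of genes, and so has no settled direction. The levels reached 73.3, 398 and 544 TPM. The interval of cluster 1 overlapped those of both others, and no cell of cluster 1 came near the highest levels of the later clusters.

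Fos and Junb were higher in cluster 3 through a limited number of cells. Fos was on in 0 of 19 cells of cluster 1, in 6 of 93 cells of cluster 2 and in 7 of 33 cells of cluster 3, with maxima of 0.599, 51.7 and 576 TPM and means of 0.060, 2.62 and 29.5 TPM. The log2 ratio of cluster 3 over cluster 2 was 3.08 and, without cell S012, 1.90. Junb was on in 2, 2 and 9 cells in that order, with means of 4.59, 0.906 and 18.9 TPM and maxima of 47.2, 56.3 and 277 TPM. Its log2 ratio was -1.55 from cluster 1 to 2, or -0.76 without cell S107, and 3.38 from cluster 2 to 3, or 2.63 without cell S021. Fosb had a log2 ratio of 1.19 from cluster 2 to 3, with 4 of its 5 highest cells in cluster 3. As a difference of mean log2 values its ratio was 0.50, below the 1.5-fold limit. In each of these genes the median of every cluster was 0.

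Jun and Dusp1 had their highest means in cluster 1. Jun was on in 36.8% of cluster 1 (interval 16.3 to 61.6%), 11.8% of cluster 2 (interval 6.05 to 20.2%) and 6.06% of cluster 3 (interval 0.743 to 20.2%). Its means were 20.1, 6.23 and 1.99 TPM and its maxima 187, 140.5 and 24.5 TPM, with log2 ratios of -1.55, or -0.72 without cell S018, and -1.27. The second of these depended on the clusters, since it was 0.15 with 3 clusters cut from a Ward tree and 0.02 with clusters from other variable genes. Dusp1 was on in 6 of 19 cells of cluster 1 (31.6%, interval 12.6 to 56.6%), in 1 of 93 cells of cluster 2 and in none of the 33 cells of cluster 3. Its means were 10.45, 0.220 and 0.287 TPM, which gave log2 ratios of -3.23 and then 0.08, and its maxima were 50.9, 19.9 and 5.605 TPM. With clusters from other variable genes the second ratio was 0.75, past the 1.5-fold limit. The intervals of Dusp1 in clusters 1 and 2 did not overlap. They cover counting error only, and the share of all tested genes with such a gap was not counted. Zfp36 had means of 1.48, 0.720 and 0.315 TPM, and its log2 ratio of cluster 2 over cluster 1 was -0.53, or -0.009 without cell S018. This ratio was past the 1.5-fold limit in other settings, among them a pseudocount of 0.1 TPM (-0.94), spike-in TPM (-1.06) and leaving out the cells with markers of other cell types (-1.10). With Ward clusters (-0.39) and as a difference of mean log2 values (-0.17) it was not. Atf3 had its 2 cells with reads in clusters 1 and 2.

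Between clusters 1 and 2 the members went both ways, with 2 of 10 higher by at least 1.5-fold (Fos and Ier2), beside 24.9% of the tested genes, and 3 of 10 lower (Jun, Junb and Dusp1), beside 21% of the tested genes. These shares are near the background. The directions of Fos (-0.49 with clusters from other variable genes), Ier2 (-0.07 without the cells with markers of other cell types) and Junb (0.73 in cells with at least the median number of genes) turned under an alternative. With clusters from other variable genes Jun was at -0.31 and Junb at -0.51, below the 1.5-fold limit. The median log2 ratio of the members was -0.01, beside 0.01 over all tested genes.

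Along the stage axis, Spearman's rho over the kept cells was 0.42 for Btg2, 0.40 for Ier2, 0.27 for Egr1, 0.22 for Junb, 0.15 for Fosb, 0.15 for Fos, 0.04 for Zfp36, -0.07 for Atf3, -0.15 for Jun and -0.23 for Dusp1. Of the tested genes, 94.2% had a lower rho than Btg2 and 15.4% a lower rho than Dusp1. In 5 bins of 29 cells from the first to the last, the mean of Ier2 was 29.6, 36.2, 39.001, 113.8 and 132.9 TPM, and it was on in 18, 19, 13, 20 and 29 cells. The mean of Btg2 was 10.7, 8.33, 20.2, 32.3 and 25.2 TPM, with 6, 6, 10, 15 and 22 cells on. Single cells weighed on the first 3 of these means, which were 4.36 TPM without cell S018, 5.17 TPM without cell S114 and 13.4 TPM without cell S129. Egr1 had means of 8.95, 5.79, 11.8, 38.9 and 58.8 TPM. The largest step in Ier2 fell between the third and the fourth bin, whose means without the highest cell of each were 33.7 and 92.7 TPM. For Egr1 the means of the last 3 bins without the highest cell of each were 8.89, 26.1 and 41.5 TPM. Of the fourth bin, 25 of the 29 cells belonged to cluster 2. Jun had means of 13.5, 7.52, 0.935, 12.03 and 1.43 TPM, with no steady order, and without the highest cell of each bin these were 7.35, 3.97, 0.025, 7.44 and 0.605 TPM.

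**Figure D4:**
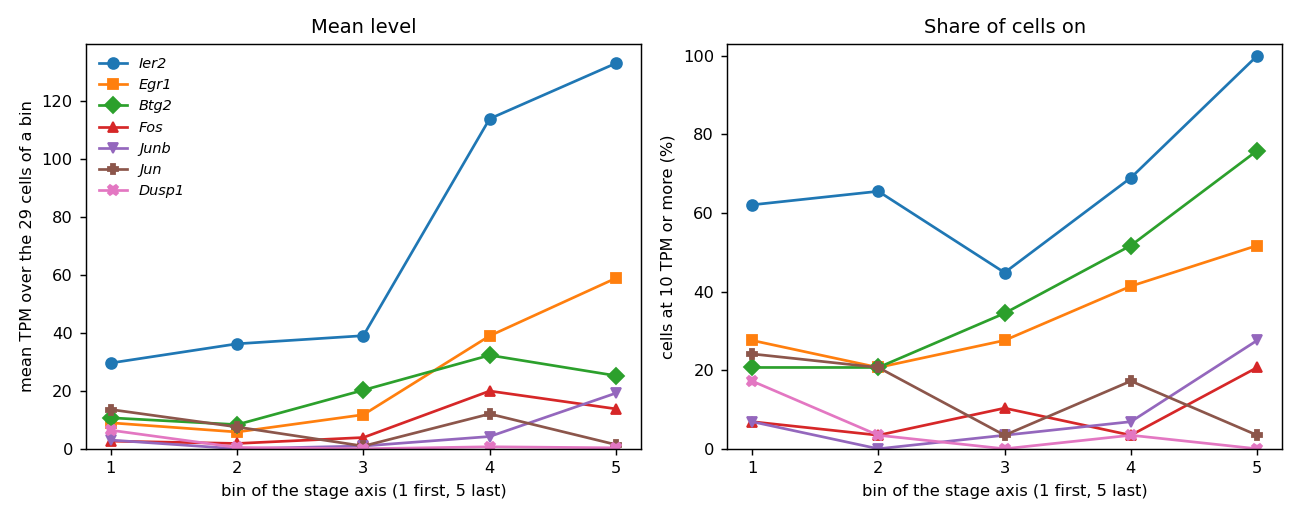
Mean TPM of 7 immediate early genes (left) and percent of cells with at least 10 TPM (right) in 5 bins of 29 cells each along the stage axis. Ier2 goes from 29.6 to 132.9 TPM in its mean and from 18 to 29 of 29 cells, and Dusp1 is on in 5 cells of the first bin and in none of the last.

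The member score of a cell, its mean log2(TPM + 1) over the 10 genes, had a rho of 0.35 with the stage axis, but of 0.17 within cluster 2 and of -0.49 within cluster 3. Other properties of the libraries went with the score as well. Its rho was 0.49 with the number of genes with at least 1 read (0.47 within cluster 2 and -0.10 within cluster 3), -0.40 with the spike-in percent (0.29 within cluster 3), 0.24 with the mitochondrial percent (0.57 within cluster 3) and 0.15 with the reads on genes (-0.34 within cluster 3), and the part of these properties was not tested. Cells of cluster 3 had a median of 14506 genes with a read, beside 12424 in cluster 1 and 12207 in cluster 2. The mean number of members on was 1.21 in the 48 cells with the fewest genes (6450 to 11635) and 2.53 in the 49 cells with the most (13591 to 16610). Within that last group it was 3 in the 24 cells of cluster 3 and 2.05 in the 21 cells of cluster 2. When only the 73 cells with at least the median number of genes were kept, 5 members were higher by at least 1.5-fold in cluster 3 than in cluster 2, beside 16% of the tested genes, with log2 ratios of 1.92 for Fos, 1.11 for Fosb, 2.16 for Junb, 1.09 for Egr1 and 0.75 for Ier2. In these cells Btg2 was at -0.46 in place of 0.47, and the median over the members was 0.40 in place of 0.83, beside -0.22 over all tested genes. When each cell was thinned to 1000000 reads, Ier2 had a read in 52.6%, 62.4% and 100% of the cells of clusters 1, 2 and 3, and Btg2 in 31.6%, 45.2% and 93.9%. Without thinning these shares were 68.4%, 74.2% and 100% for Ier2 and 63.2%, 56.99% and 93.9% for Btg2.

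Markers of other cell types went with the score to a varying degree. Its rho was 0.25 with the sum of 9 immune markers, 0.21 with the sum of 14 pregranulosa markers, 0.12 with that of 7 endothelial markers, 0.10 with that of 12 stroma markers and 0.06 with that of 7 blood markers. The median sums of the immune markers were 0.412, 0.120 and 1.59 TPM in clusters 1, 2 and 3. No cell reached 100 TPM in the immune, pregranulosa or endothelial list, whereas 3 cells did in the stroma list. Of the 9 immune markers, Tyrobp was at 0 in every cell, Aif1 and C1qa were above 0 in 1 cell each, and Ptprc, Csf1r, Lyz2 and Cx3cr1 had means below 1 TPM, with log2 ratios of cluster 3 over cluster 2 of 0.25, -0.52, 0.005 and 0.14. C1qb averaged 0.0047 TPM in cluster 1, 1.73 TPM in cluster 2 and 6.40 TPM in cluster 3 and reached 10 TPM in 13 cells. Cd68 averaged 0.7997, 1.25 and 3.44 TPM in that order and reached 10 TPM in 7 cells. Without the highest cell of each cluster, Cd68 was at 0, 0.429 and 1.45 TPM and C1qb at 0, 1.05 and 5.49 TPM. Both were higher by at least 1.5-fold in cluster 3 than in cluster 2, as the members Fos, Fosb, Junb, Egr1 and Ier2 were, and the part of the cells with these genes was not tested. Without the 58 cells in which any such list summed to 100 TPM, 56 of them through blood genes, 6 members were higher in cluster 3 than in cluster 2 and 1 was lower. The comparison of clusters 1 and 2 did not keep its form, with 0 members higher and 6 lower, and Ier2 had a log2 ratio of -0.07 there. Shares of all tested genes in these cells are not given here, so both sets of counts describe the members only.

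**Figure D5:**
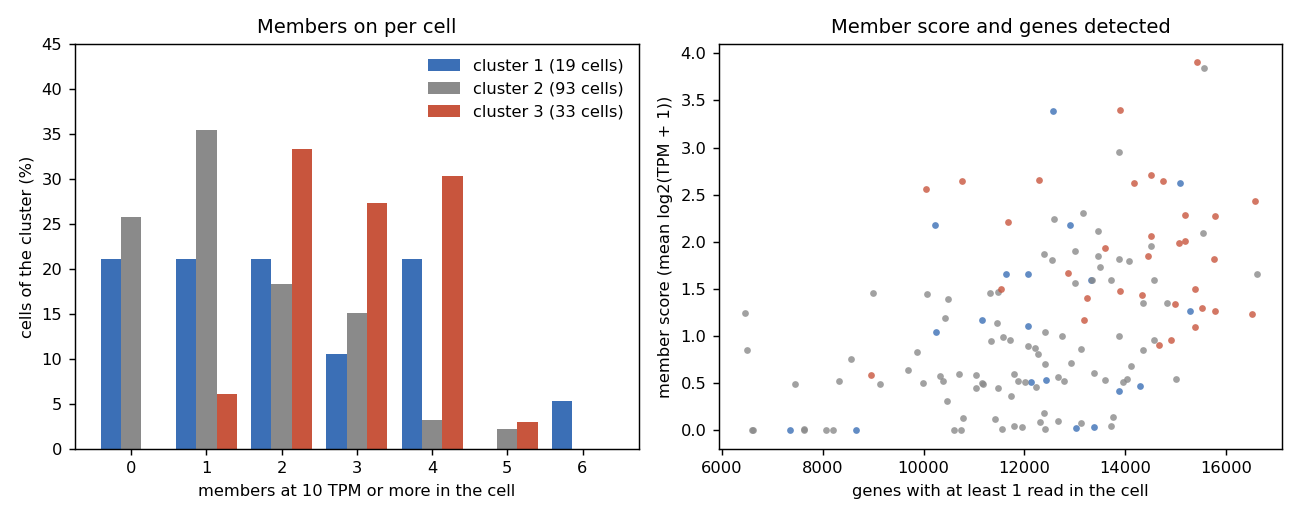
Percent of the cells of each cluster by the number of immediate early genes at 10 TPM or more (left, bars), and member score against genes with at least 1 read, 1 point per cell (right). No cell of cluster 3 has 0 members on, and the rho of the score with the genes detected is 0.49 over all kept cells and -0.10 within cluster 3.

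A wider list held 48 further immediate early genes, and 29 of them reached a mean of 1 TPM. From cluster 1 to 2, 13 of the 29 (44.8%) were higher by at least 1.5-fold and 4 (13.8%) lower, beside 24.9% and 21% of all tested genes. From cluster 2 to 3, 11 of the 29 (37.9%) were higher and 6 (20.7%) lower, beside 16.7% and 30.4%, with a median log2 ratio of 0.12. The abundant genes of the list differed in course. Gadd45a, a growth arrest and DNA damage gene, averaged 7.04, 28.2 and 68.5 TPM over clusters 1, 2 and 3. Zfp36l2, an mRNA decay factor of the Zfp36 family that oocytes use, had means of 7.29, 22.1 and 35.3 TPM, and Gadd45b of 4.84, 18.96 and 22.1 TPM. Nfkbia, the inhibitor of NF-κB, had means of 50.3, 51.7 and 112.3 TPM, and Ppp1r15a, the phosphatase subunit that reverses the integrated stress response, of 27.3, 16.6 and 38.3 TPM. Mcl1, a survival factor of the Bcl2 family, was at 19.3, 35.9 and 33.6 TPM. Klf10 (71.1, 80.4 and 44.7 TPM) and Gadd45g (4.46, 14.03 and 2.33 TPM) had the lowest means in cluster 3, and without the highest cell of each Gadd45g was at 1.55 TPM in cluster 1 (cell S018) and 0.922 TPM in cluster 3 (cell S113). Without their highest cell, Gadd45a was at 2.73 TPM (cell S086) and Gadd45b at 2.46 TPM (cell S059) in cluster 1. The paralogue Zfp36l2 was on in 91 cells where Zfp36 was on in 4, and Egr2 had a mean of 4.02 TPM in cluster 3, or 1.25 TPM without cell S053, with 5 cells above 0, and was listed at 0 in all cells of clusters 1 and 2, while Egr3, Egr4, Arc and Npas4 were on in no cell.

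The kinases and factors upstream of these genes had shares near those of all tested genes. Of 27 measured at a mean of at least 1 TPM, 5 (18.5%) were higher and 8 (29.6%) lower from cluster 2 to 3, beside 16.7% and 30.4% of all tested genes, with a median log2 ratio of -0.27 beside -0.22. Mapk3 (ERK1) had means of 7.08, 9.36 and 54.6 TPM and a rho of 0.33 with the member score, whereas Mapk9 (JNK2) had means of 70.3, 36.1 and 17.4 TPM and Crem, a CREB family factor, of 30.9, 14.8 and 8.33 TPM. Of 12 integrated stress response genes, 1 (8.33%) was higher and 5 (41.7%) lower from cluster 2 to 3, beside the same shares of all tested genes, with Asns at 47.1, 32.5 and 4.92 TPM, Ddit3 at 29.7, 13.9 and 7.33 TPM and Phgdh at 4.89, 63.4 and 74.9 TPM. Of 12 heat shock genes, 0 were higher and 3 (25%) lower, with Hspa8 at 1963, 1410 and 411 TPM, Dnajb1 at 53.4, 33.2 and 20.1 TPM and Hspe1 at 636, 1205 and 1405 TPM. Of 14 genes of a p53 list, which holds Trp53, Trp63 and targets of p53 but not the target Btg2, 5 (35.7%) were higher and 5 (35.7%) lower, with Trp63, the p53 family member that guards the oocyte genome, at 3.40, 27.1 and 49.9 TPM, Pmaip1 at 3.99, 14.6 and 15.2 TPM and Phlda3 at 0.020, 18.1 and 2.38 TPM, the last being 0.754 TPM without cell S132. In cluster 1 the means without the highest cell were 4.55 TPM for Mapk3, 3.14 TPM for Phgdh, 1.67 TPM for Trp63 and 1.76 TPM for Pmaip1.

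Genes whose levels over the kept cells were most like those of a member were sought among 9928 coding genes. The closest to Btg2 were Osbpl6 (rho 0.51) and Tcl1b2 (0.51), to Ier2 Mctp2 (0.50) and Iqca (0.49), and to Egr1 Olfr1062 (0.49) and Prr15 (0.47). For Jun they were Tmem150c (0.42) and Olfr620 (0.35), for Fos Eva1c (0.39) and Olfr620 (0.36), and for Junb Rras (0.36) and Cebpb (0.35), the last of which is itself on the wider list. Dusp1 was closest to Pfn4 (0.38) and Lypd4 (0.37), Zfp36 to Chmp4c (0.36) and Fbxl14 (0.36), Fosb to Ubald2 (0.36) and Hirip3 (0.31), and Atf3 to Yipf7 (0.26) and Rdh11 (0.22). The member score was closest to Bglap3 (0.48), Osbpl6 (0.48), Lurap1l (0.47), Plat (0.47), Slc38a1 (0.47), Dock4 (0.47), C130032M10Rik (0.47), Enpp5 (0.47), Nox1 (0.46) and Rora (0.46). Members were left out of this search. The values of Ier2, Egr1 and Btg2 with each other were 0.40 to 0.42. The genes closest to them had higher values, but as the highest of 9928 they are no measure for these pairs. Of all pairs of tested genes, 0.19% had a rho at least as high as Ier2 with Btg2, the highest pair of members.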

How the data were processed

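RNA of 146 single germ cells was measured by Smart-seq2. The authors quantified reads with Salmon against mm10 with spike-in sequences and deposited, for every gene symbol, a TPM and an estimated count of its reads. The annotation release is not given in the sources used here. TPM shares 1 total per cell with mitochondrial genes and spike-ins included.

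Cells with Ddx4 below 1 TPM were left out. The 3 clusters were rebuilt with Seurat 5.3.0 under R 4.3.3 (TPM of 20 feature genes, 10 components, 20 neighbours, lowest resolution giving 3 groups), so they are not the clusters of the study. Doublets were not called. Shares, ratios (pseudocount 1 TPM, call at 1.5-fold, a size only), Spearman's rho and intervals come from Python 3.11.15 (SciPy 1.17.1, NumPy 2.4.6, pandas 2.3.3). All cells are 1 sample, so no test was made. Calculations were tested on simulated data.

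The members and lists were chosen with earlier results of these data known. Named genes are all members, further immediate early genes with a mean of at least 10 TPM, the 3 genes per other list with the largest ratio of cluster 3 over 1 at that mean, and the genes most like each member (coding, at least 1 TPM in 20% of cells). Jund, Egr2, Egr3, Egr4, Arc, Npas4, Tyrobp, Aif1, C1qa, C1qb, Cd68 and the stage genes were named after their values were seen. The germ cell markers and the immune markers Ptprc, Csf1r, Lyz2 and Cx3cr1 were also named outside these rules. Alternatives were other scalings (CPM, spike-ins), thresholds, pseudocounts, clusters and sets of cells. The restriction to cells with at least the median number of genes, and the counting of near-identical libraries (correlation of at least 0.95) once, were added after seeing the data.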

Additional observations from a re-analysis of the deposited data

Results flagged for a closer look

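The library without Ddx4, cell S029, took part in making the clusters and the stage axis but in none of the values compared above, and carried reads of 4 immediate early genes. It held 139.1 TPM of Btg2 from 550 reads, 8.96 TPM of Zfp36 from 35.2 estimated reads, 2.62 TPM of Jun from 11 reads and 1.63 TPM of Egr1 from 7 reads, and the other 6 genes, Ier2 and Fos among them, were listed at 0. Btg2 without Ier2 was seen in 10 of the 59 kept cells with Btg2 on. The stroma markers of this library summed to 248.8 TPM and its pregranulosa markers to 90.7 TPM, with 1408459 reads on genes. The part of these markers in its levels was not tested.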

How the results depend on the processing

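In cluster 3 over cluster 2, between 5 and 7 members were higher by at least 1.5-fold under every alternative run, but not always the same ones. With means of log2 values Fosb fell below the limit (0.50) and Btg2 passed it (2.11). With variable-gene clusters Dusp1 (0.75) and Btg2 (0.64) passed it. Of the tested genes, 16.7% were higher in the main setting. This share was 16% in the 73 cells with at least the median number of genes and 16.6% with near-identical libraries counted once. Shares under other alternatives are not given, so the counts describe the members only. Per spike-in TPM, 6 members were higher, with a median log2 ratio of 1.44 over the members. All tested genes had a median of 0.57 there, close to the limit of 0.585, so this count alone does not set the members apart. The number lower, 1 (Jun), was 2 with a pseudocount of 0.1 TPM and 0 with means of log2 values, with Ward clusters (Jun 0.15) and with variable-gene clusters (Jun 0.021), and 1 to 2 with each cell left out in turn. In cluster 2 over cluster 1, the number higher, 2, was 1 with means of log2 values, 0 with Ward clusters, 0 without the 58 cells with markers of other cell types (Ier2 -0.067), 4 in the 73 cells with at least the median number of genes (Junb 0.73), and 1 to 3 with each cell left out. The number lower, 3, was 5 with a pseudocount of 0.1 TPM, 6 without the cells with those markers, 2 with means of log2 values and 2 with variable-gene clusters (Jun -0.31, Junb -0.51), and Fos was at -0.49 with variable-gene clusters. Cells with at least 5 members on, 4 at 10 TPM, were 11 at 1 TPM, 1 at 50 TPM, 41 at 1 read, 13 at 1 read after thinning and 2 without the cells with those markers. The median number on, 2, was 0 at 50 TPM and 4 at 1 read. The rho of the score with the stage axis, 0.35, was 0.17 within cluster 2, -0.49 within cluster 3 and 0.32 to 0.40 in the other settings, leaving out each cell included. Division by spike-in TPM moved the median log2 ratio of all tested genes from -0.22 to 0.57 (cluster 3 over 2) and from 0.01 to -0.14 (cluster 2 over 1) and turned no member that was past 1.5-fold. The cause of these shifts was not tested. With the 7 pairs of near-identical libraries counted once, no count of members above moved, and the rho with the stage axis was 0.37. Cells without replicate animals limit every value here to these libraries.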
